A study of Equus caballus with 25 samples.

Results

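The 8 horses with severe equine asthma (SEA) among the 25 horses of this series were compared by the share of neutrophils in their bronchoalveolar lavage (BAL) fluid. The rule put 4 of the 8 in an upper group (R3, R4, R5 and R8), with neutrophils at or above 85% of the inflammatory cells counted in BAL fluid. The other 4, under 85% (R1, R2, R6 and R7), made the lower group. The counts were those of the study's table, in which epithelial cells were counted separately. The horses next to the line were R5 at 87% and R7 at 83%. Each group held 2 females and 2 males. The SEA horses had a mean age of 12 years, against 6 years in the 7 healthy horses (CTRL) and 6 years in the 10 horses with mild to moderate asthma (MEA), but ages and breeds were not given horse by horse, so the upper and lower groups cannot be compared by age or breed. Lavage fluid of the SEA and MEA horses was taken at a hospital as they came in as patients. RNA came from all cells of the lavage together, and 1 array was run per horse. The array carried 7238 equine transcripts chosen for immune and mucosal genes, of which 4930 passed a filter on low values and were tested. Values are log2 intensities, differences are upper minus lower group in log2, and a transcript was called at an adjusted p below 0.1 with a fold of at least 1.5.

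Neutrophils leave the blood for the airway lumen in severe equine asthma, drawn by chemokines such as interleukin 8 and by lipid mediators. In the lumen they release granule proteases and oxidants, and they carry receptors for colony-stimulating factor, immunoglobulin and microbial products. Resident alveolar macrophages, which clear particles and dying neutrophils, make up much of the rest of the lavage cells.

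Gene symbols were available for 1684 of the 4930 tested transcripts, from the study's own lists of transcripts that differed between diagnoses in these horses, so a named transcript had already been chosen for a difference from CTRL or MEA. Some transcripts share the very same 60-base probe. The 4930 tested transcripts had 4571 distinct probe sequences, and transcripts with 1 shared probe are not separate measurements. The probes of the receptor genes TREM1 and CSF3R, of KIAA0226L, SOCS3 and APH1B, and of the macrophage gene MARCO are shown as examples. Where each probe lies in its messenger was not determined. The TREM1 and SOCS3 probes each stand for 2 transcripts of the array and the KIAA0226L probe for 3.
TREM1: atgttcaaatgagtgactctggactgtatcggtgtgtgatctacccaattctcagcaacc
CSF3R: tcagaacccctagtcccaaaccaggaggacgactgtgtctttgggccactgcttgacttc
KIAA0226L: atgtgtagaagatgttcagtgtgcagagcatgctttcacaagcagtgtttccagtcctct
SOCS3: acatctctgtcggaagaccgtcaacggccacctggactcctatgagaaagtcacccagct
APH1B: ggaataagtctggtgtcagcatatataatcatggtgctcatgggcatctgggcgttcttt
MARCO: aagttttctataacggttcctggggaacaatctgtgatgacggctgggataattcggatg

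Before the results, 1 array stood apart. Over the 4930 transcripts the correlation of R1 with the other 7 SEA arrays ran from 0.790 to 0.928, while those 7 correlated with each other at 0.895 to 0.967. The first principal component of the 8 arrays held 49.5% of the variance and put R1 at -82.4, R3 at -28.0, R8 at -4.3, R4 at -3.3, R5 at 16.4, R2 at 28.9, R7 at 32.0 and R6 at 40.7. R1 therefore lay on the far side of the upper group from the other 3 horses of its own group, and the results are given with and without it. The arrays also lay on 4 slides. R3, R4 and R5 were on slide 2 and R8 on slide 4, while R2, R6 and R7 were on slide 3 and R1 on slide 1, so no slide held horses of both groups, and group and slide cannot be told apart among the SEA horses.

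The labels neutrophil-rich and less neutrophilic were checked first against neutrophil transcripts. Of 31 neutrophil marker symbols 15 could be tested, and the mean of these 15 transcripts was 9.34 in R3, 9.35 in R4, 9.42 in R5 and 9.24 in R8, against 7.23 in R1, 10.57 in R2, 10.73 in R6 and 10.45 in R7. The 4 horses of the upper group were alike and lay 1 log2 unit or more below R2, R6 and R7, while R1 lay below all of them and below the lowest CTRL horse (7.52). The CTRL horses had a median of 8.55 and a highest value of 9.56. Among the markers, LTF, VNN1 and ANXA3 had CTRL medians of 11.10, 9.16 and 8.36, far above R1 at 4.10, 2.94 and 4.88. These genes pulled the mean of R1 down relative to CTRL, and the mean was not computed without them. For LTF and VNN1 every SEA horse was below the CTRL median. Other markers ran both ways in R1, with NCF1 at 8.90 above its CTRL median of 8.36 and IL1R2 at 6.14 below 9.70. For CSF3R and FCAR the upper horses were all above the CTRL median (7.40 and 10.72). Between the groups, 13 of the 15 transcripts were lower in the upper group. The median difference was -0.46, beside -0.01 over all 4930 transcripts and -0.09 over the 1684 with a symbol. Without R1 all 15 were lower, with a median of -1.29 beside -0.05 and -0.43. With R1 kept in, the median was -0.049 without R6 and -0.0696 without R2. No tested transcript carried any of the other 16 symbols, and whether they are among the tested transcripts without a symbol is not known. The signal of the neutrophil markers was thus not higher in the group labelled neutrophil-rich, and the groups are called upper and lower here, after the rule. In bulk RNA, fewer cells of a type and less RNA per cell cannot be told apart. By the study's methods the lavage was split, so cells were counted in 1 aliquot and RNA was taken from another. Counts were joined to arrays by horse name alone, and whether each name stands for the same horse in both was not tested, R1 included, so each difference between the groups holds only as far as the names match. The study's other counts ran both ways. R3 had the lowest epithelial share of the SEA horses and a low ciliated cell signal, but R1 had the lowest such signal without the lowest share. R3 and R8 had the lowest macrophage shares but the highest macrophage signal.

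**Figure D1:**
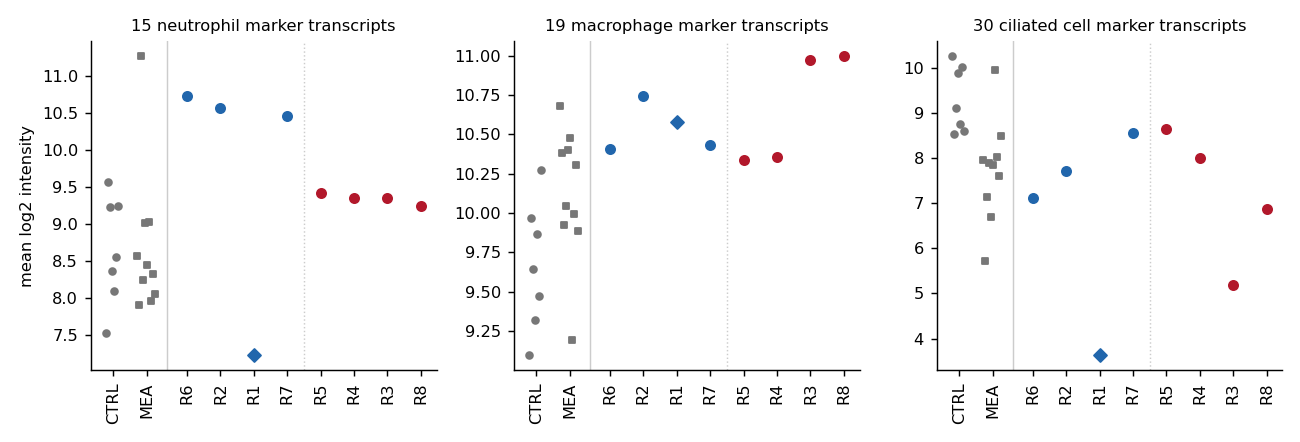
Mean log2 intensity of neutrophil, macrophage and ciliated cell marker transcripts. SEA horses are in the order of their neutrophil share, from R6 (lowest) to R8 (highest); blue, lower group; red, upper group; diamond, R1; grey, CTRL and MEA horses.

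CSF3R, the receptor for granulocyte colony-stimulating factor, read 11.14 in R3, 9.58 in R4, 10.13 in R5 and 10.65 in R8, against 5.96 in R1, 12.02 in R2, 13.01 in R6 and 11.90 in R7. R2, R6 and R7 were above the whole upper group, and R1 was below it, inside the CTRL range of 5.69 to 10.57. The difference was -0.35 in the 8 horses (adjusted p = 0.9996) and -1.93 without R1 (adjusted p = 0.104), just outside the threshold. The immunoglobulin A receptor FCAR had 13.02 in R3, 12.58 in R4, 13.11 in R5 and 12.40 in R8, and 9.96 in R1, 14.50 in R2, 15.09 in R6 and 14.46 in R7. Again R2, R6 and R7 were above the upper group and R1 below it, and without R1 FCAR was called, with a difference of -1.90 ± 0.30 (standard error; adjusted p = 0.0476), where the 8 horses gave -0.72 (adjusted p = 0.9996).

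The inflammasome-family receptor NLRP12 read 7.23 in R3, 8.41 in R4, 9.03 in R5 and 9.05 in R8, against 5.73 in R1, 11.13 in R2, 10.67 in R6 and 9.10 in R7. R7 was level with R5 and R8, and R2 and R6 stood above all others. For LTF, the iron-binding granule protein lactoferrin, the values were 7.89 in R3, 9.63 in R4, 9.61 in R5 and 9.03 in R8, and 4.10 in R1, 9.67 in R2, 10.82 in R6 and 9.35 in R7. Here the groups overlapped and R1 was far below both, and all SEA horses but R6 were under the lowest CTRL horse (9.85). The water and glycerol channel AQP9 had 8.59 in R3, 7.35 in R4, 7.37 in R5 and 7.58 in R8, and 7.63 in R1, 8.12 in R2, 7.81 in R6 and 7.63 in R7. All 8 horses lay close together for AQP9, R1 included, with R3 the highest and R4 the lowest. Among the other neutrophil markers, IL1R2, a decoy receptor for interleukin 1 (difference -2.32 without R1, adjusted p = 0.0561), and the lipolysis inhibitor G0S2 (-1.68, adjusted p = 0.0662) were called without R1. So 3 of the 15 neutrophil markers (20%) passed without R1, beside 57 of the 1684 transcripts with a symbol (3.38%), and 0 in the 8 horses.

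Macrophage markers overlapped between the groups. Of 28 symbols 17 could be tested, with 19 transcripts, whose mean was 10.97 in R3, 10.35 in R4, 10.34 in R5 and 10.996 in R8, against 10.58 in R1, 10.74 in R2, 10.40 in R6 and 10.43 in R7. The 2 horses with the largest neutrophil share, R3 and R8, had the highest macrophage signal. The median difference was 0.14 in the 8 horses, beside -0.09 over all transcripts with a symbol. Without R1 it was 0.43, beside -0.43, with 7 of the 19 lower in the upper group beside 1241 of 1684. In either fit 0 of the 19 were called, and the 3.38% called without R1 of all with a symbol would be less than 1 of 19. CD68, a lysosomal protein of macrophages, read 15.90 in R3, 14.58 in R4, 14.44 in R5 and 15.94 in R8, against 15.50 in R1, 15.16 in R2, 15.79 in R6 and 14.71 in R7, and the groups overlapped. The scavenger receptor MARCO, a marker of alveolar macrophages, had 13.78 in R3, 14.22 in R4, 14.18 in R5 and 9.75 in R8, and 13.22 in R1, 12.45 in R2, 11.85 in R6 and 13.34 in R7. R8 was far below the other 7 horses, and the remaining upper horses were above the whole lower group. TREM2, a lipid-sensing receptor, read 10.09 in R3, 8.60 in R4, 7.38 in R5 and 11.25 in R8, against 10.23 in R1, 9.05 in R2, 8.18 in R6 and 8.22 in R7. R3, R8 and R1 were high together for TREM2 and R5 lowest. The sialic acid receptor SIGLEC1 differed by 0.32, and 0.57 without R1. The complement receptor VSIG4 differed by 0.76, and 1.25 without R1, with R6 at 3.3997 and the other 7 horses between 6.46 and 7.67. STAB1 did not pass the filter on low values.

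In the fit of all 8 horses, 0 of 4930 transcripts (0%) were called by limma, with 111 at an unadjusted p below 0.05 (19 higher and 92 lower in the upper group) and a smallest adjusted p of 0.9996. The values of the 4 and the 4 horses did not overlap for 84 transcripts (1.7%). Of these, 16 were higher and 68 lower in the upper group, and 3 and 21 had a symbol. For a transcript unrelated to the split, the exact probability of being apart in either direction is 0.0286 over the 70 splits. The 84 were a smaller share than that. With R1 left out, 87 of 4930 transcripts (1.76%) were called, 1 higher and 86 lower in the upper group (1.74%), with 730 at an unadjusted p below 0.05 (214 higher and 516 lower) and a smallest adjusted p of 0.0206. This count leaned on single horses, since it was 0 when R2 was also left out and 2 when R4 was, and 37 at most when any other horse was. The split by direction depended on the processing, with 20 higher and 133 lower with normexp background correction. With array weights 165 were higher and 512 lower. A single fit of all arrays but R1 with the 4 groups called 0 (618 at an unadjusted p below 0.05), and the same fit with the slide as a term called 0 (249 at an unadjusted p below 0.05). The median difference of the 86 was -1.80 without and -1.85 with the slide term. This cannot tell slide from group, since the 86 were picked for their difference and no slide held SEA horses of both groups. The term for slide 3 therefore rested on CTRL and MEA horses, whose median differences between slides 3 and 2 were 0.61 and -0.54. The part of the slide was not tested.

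**Figure D2:**
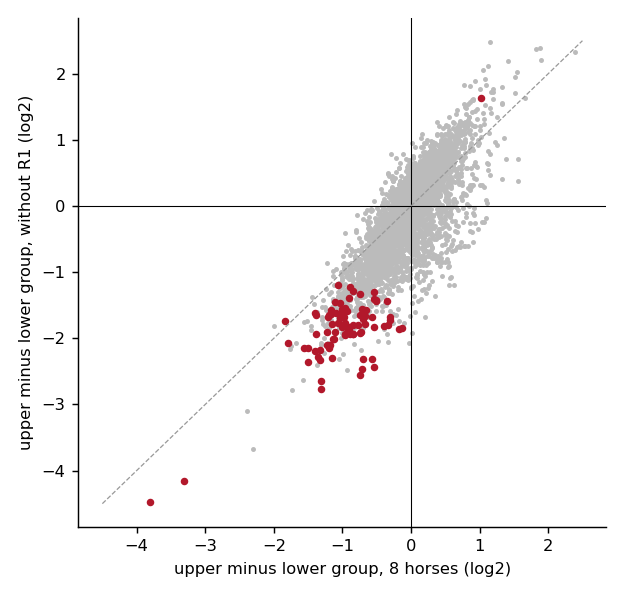
Differences between the upper and the lower group for the 4930 transcripts, in the 8 horses and without R1. Red, the 87 transcripts called without R1; dashed line, equal differences.

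The transcripts that kept all 4 and 4 horses apart are a description, since they were picked for it. They were no more frequent than a split unrelated to the values would give. APH1B, a subunit of gamma-secretase, read 7.33 in R3, 7.65 in R4, 6.68 in R5 and 7.42 in R8, against 8.23 in R1, 8.96 in R2, 10.40 in R6 and 8.68 in R7. R6 was the highest of the 8, and the upper group lay within the CTRL range of 6.56 to 7.84. The difference was -1.79 ± 0.47 (adjusted p = 0.9996), and without R1 APH1B was called at -2.07 ± 0.45 (adjusted p = 0.0925). It was the only one of 6 transcripts called without R1 and apart in all 8 horses that had a symbol. SEMA4A, a semaphorin that acts on T cells, had 8.10 in R3, 7.03 in R4, 7.57 in R5 and 7.19 in R8, and 8.66 in R1, 8.48 in R2, 8.45 in R6 and 9.26 in R7. Here R1 stood among the other lower horses, and the difference of -1.24 was -1.25 without it (adjusted p = 0.174). VASP, which promotes the growth of actin filaments, read 7.71 in R3, 7.84 in R4, 7.31 in R5 and 7.40 in R8, against 8.36 in R1, 8.12 in R2, 8.48 in R6 and 8.71 in R7. The gap lay between R4 and R2, and every SEA horse but R5 was above the highest CTRL horse (7.34). The difference was -0.85, and -0.87 without R1 (adjusted p = 0.209).

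DOCK8, which activates the small GTPase CDC42 in moving leukocytes, had 9.66 in R3, 9.53 in R4, 9.42 in R5 and 9.33 in R8, and 9.84 in R1, 10.54 in R2, 11.14 in R6 and 10.40 in R7. R1 was the lowest of its group and close to R3, the highest of the upper group, and the difference of -0.997 was -1.21 without R1 (adjusted p = 0.104). TACC3, a protein of the mitotic spindle, differed by -1.17, and by -1.31 without R1. RASSF5, which links RAP1 to the adhesion of lymphocytes, differed by -0.76, and by -0.85 without R1. The 3 named transcripts that lay higher in the whole upper group were FLRT3, GADD45G and RANGRF. FLRT3, a membrane protein of cell adhesion and guidance, read 10.09 in R3, 10.26 in R4, 10.19 in R5 and 10.39 in R8, against 9.30 in R1, 9.74 in R2, 9.53 in R6 and 8.79 in R7. The upper horses were close to each other while the CTRL horses spread from 6.05 to 10.22, and the difference was 0.89, with 0.88 without R1. GADD45G, a stress-inducible regulator of MAP kinase signaling, had 8.40 in R3, 8.33 in R4, 7.96 in R5 and 7.88 in R8, and 6.64 in R1, 7.76 in R2, 7.53 in R6 and 7.44 in R7. All 4 upper horses were above the highest CTRL horse (7.77), and R1 was the lowest of the 8, with a difference of 0.80, and 0.57 without R1. RANGRF, a binding partner of the small GTPase RAN, differed by 0.41 in both fits. Of all these, APH1B alone was called without R1, and none was called in the 8 horses.

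Pattern recognition receptors were among the transcripts called without R1, all lower in the upper group. Of 19 such transcripts 4 (21.1%) were called, beside 57 of the 1684 transcripts with a symbol (3.38%), or 3 of 18 probes (16.7%) beside 49 of 1549 (3.16%) with each shared probe counted once. The list's median difference was -0.47 in the 8 horses (beside -0.09) and -1.14 without R1 (beside -0.43). The 4 were TLR4, PTX3 and the 2 TREM1 transcripts, which share the probe shown above. TLR4, the receptor for bacterial lipopolysaccharide, read 12.98 in R3, 12.90 in R4, 13.40 in R5 and 13.59 in R8, against 11.55 in R1, 15.40 in R2, 15.56 in R6 and 15.11 in R7. R2, R6 and R7 were the top 3 and R1 the lowest of the 8, inside the CTRL range of 9.54 to 13.16. Its difference was -1.19 (adjusted p = 0.9996) and, without R1, -2.14 ± 0.28 (adjusted p = 0.0283). PTX3, a secreted pattern recognition protein stored in neutrophil granules, had 15.31 in R3, 13.62 in R4, 14.66 in R5 and 13.82 in R8, and 11.30 in R1, 17.07 in R2, 16.73 in R6 and 17.57 in R7. As for TLR4, R2, R6 and R7 were the top 3 and R1 the lowest, and PTX3 gave the largest called difference of a named transcript, -2.77 ± 0.45 without R1 (adjusted p = 0.0476), against -1.31 in the 8 horses (adjusted p = 0.9996).

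TREM1, a receptor that amplifies the response of neutrophils and monocytes, read 14.72 in R3, 13.70 in R4, 14.13 in R5 and 13.78 in R8, against 10.00 in R1, 16.20 in R2, 16.17 in R6 and 15.29 in R7, on the first of its transcripts. R1 was more than 3 log2 units below every other SEA horse and at the CTRL median of 9.97, while the other 7 were above the highest CTRL horse. The difference was -0.33 in the 8 horses and -1.81 ± 0.36 without R1 (adjusted p = 0.0764). IL1R2 had 10.64 in R3, 11.57 in R4, 10.40 in R5 and 10.66 in R8, and 6.14 in R1, 13.78 in R2, 13.19 in R6 and 12.43 in R7. Again the upper horses lay between R1 and the other 3. The called transcripts of the interleukin 1, TNF and NF kappa B list were IL1R2, the kinase IRAK2 (-1.68 without R1, adjusted p = 0.0925) and TNFRSF1B, 3 of 28 (10.7%, beside 3.38% of those with a symbol). The median of this list was -0.49, beside -0.09 over all with a symbol, and -0.90 without R1, beside -0.43. CCRL2, a chemerin-binding receptor, was the 1 called of 19 chemokine and chemokine receptor transcripts (-1.93 without R1, adjusted p = 0.057), a share of 5.26% that is near the 3.38% of all with a symbol.

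KIAA0226L, whose protein takes part in autophagy, and SLC16A3 had the smallest adjusted p of all transcripts. Its values were 9.71 in R3, 9.83 in R4, 9.51 in R5 and 9.98 in R8, against 5.24 in R1, 12.06 in R2, 12.57 in R6 and 12.01 in R7. The upper horses were close to each other, R2, R6 and R7 some 2 log2 units above them, and R1 more than 4 below them. On this probe the difference was -2.46 ± 0.27 without R1 (adjusted p = 0.0206) and -0.71 in the 8 horses (adjusted p = 0.9996). SLC16A3, SOCS3 and BCL6, like IL1R2, G0S2 and CCRL2 above, were picked after the values were seen. SLC16A3, an exporter of lactate, read 8.03 in R3, 8.64 in R4, 7.99 in R5 and 8.40 in R8, against 7.21 in R1, 10.74 in R2, 10.46 in R6 and 10.65 in R7, a difference of -2.35 without R1 (adjusted p = 0.0206). SOCS3, an inhibitor of cytokine signaling through STAT3, had 8.196 in R3, 7.97 in R4, 8.19 in R5 and 7.70 in R8, and 5.72 in R1, 9.44 in R2, 9.42 in R6 and 10.19 in R7, with -1.67 without R1 (adjusted p = 0.0561). These are the values of 1 of its 2 transcripts, and the other, on the same probe, gave -1.57 without R1 (adjusted p = 0.0797). For the transcriptional repressor BCL6 the values were 11.90 in R3, 11.78 in R4, 11.98 in R5 and 12.25 in R8, and 9.98 in R1, 13.62 in R2, 14.44 in R6 and 13.28 in R7, with -1.80 without R1 (adjusted p = 0.057). In all 3 genes R1 was the lowest of the 8 horses and R2, R6 and R7 were the top 3.

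**Figure D3:**
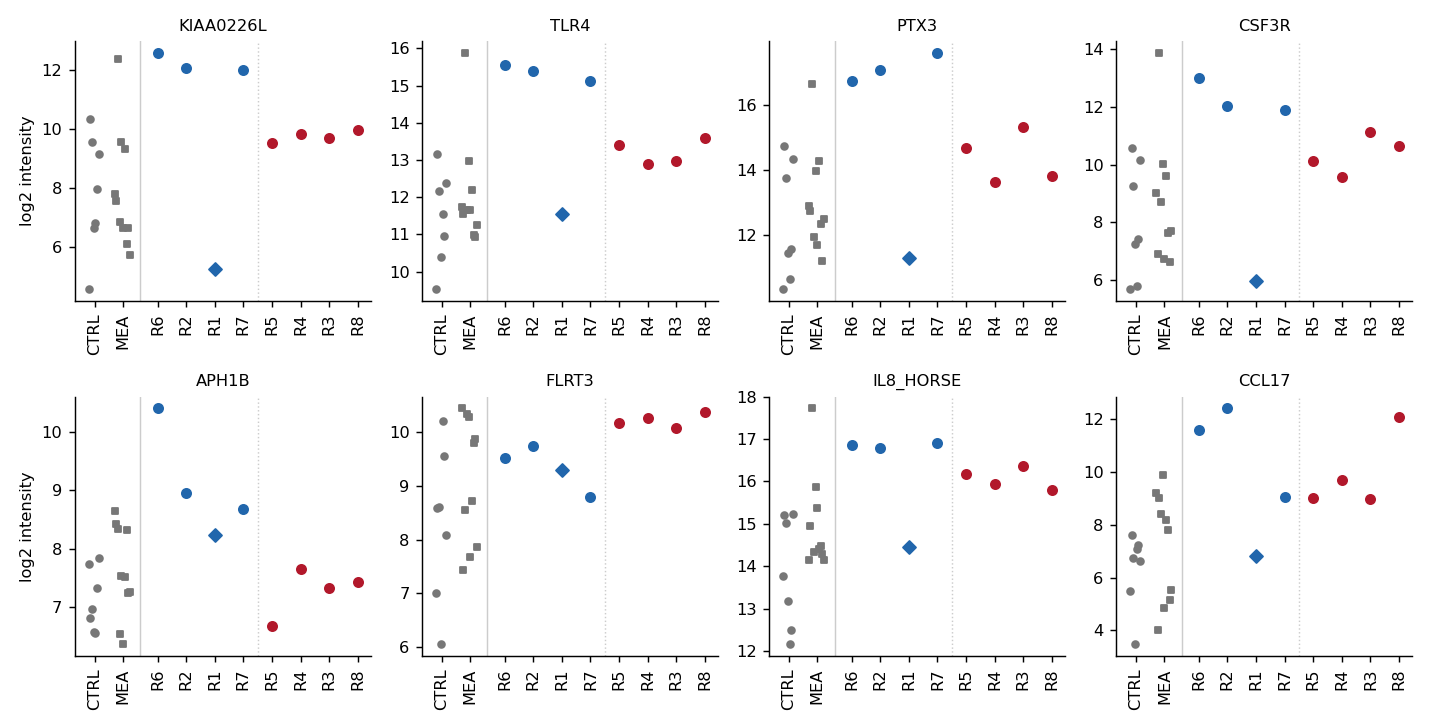
Log2 intensity of 8 transcripts in every horse. SEA horses are in the order of their neutrophil share; blue, lower group; red, upper group; diamond, R1; grey, CTRL and MEA horses. KIAA0226L is shown by its first transcript.

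Across the 86 transcripts called lower in the upper group without R1, R1 was the lowest of the 8 SEA horses in 69 and below the CTRL mean in 66. Over the 86 the median distance from the CTRL mean was 0.86 in R3, 0.61 in R4, 0.79 in R5 and 0.87 in R8, and 2.49 in R2, 2.85 in R6, 2.56 in R7 and -0.63 in R1. The upper group thus lay between CTRL and the other 3 horses of the lower group. The mean of R2, R6 and R7 was above the CTRL mean in all 86, and that of the upper group in 67. Outside SEA, the MEA horse I3 on slide 4 read 2.96 over the CTRL mean, as high as R2, R6 and R7. Over the 86 the other 9 MEA horses lay between -0.59 and 0.96. The neutrophil marker mean of I3, 11.26, was the highest of the 25 arrays, though the study counted mostly macrophages and few neutrophils in I3. Whether the name I3 stands for the same horse in counts and arrays was not tested. For the same 86 transcripts, R2, R6 and R7 on slide 3 exceeded R3, R4 and R5 on slide 2 by a median of 1.83. CTRL horses on slide 3 exceeded those on slide 2 by 0.61, with 80 of the 86 higher, and the 1 MEA horse on slide 3 differed from the 2 on slide 2 by -0.54, with 19 of the 86 higher. R2, R6 and R7 exceeded R8 on slide 4 by a median of 1.79. The direction of both SEA differences was fixed by the choice of the 86. CTRL and MEA horses entered that choice only through the normalization and the filter on low values. CTRL horses on slide 3 differed from the 1 on slide 4 by -0.34, with 24 of the 86 higher, and the MEA horse on slide 3 from the 5 on slide 4 by -0.59, with 15 of the 86 higher. The 87 called transcripts had 77 distinct probe sequences.

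**Figure D4:**
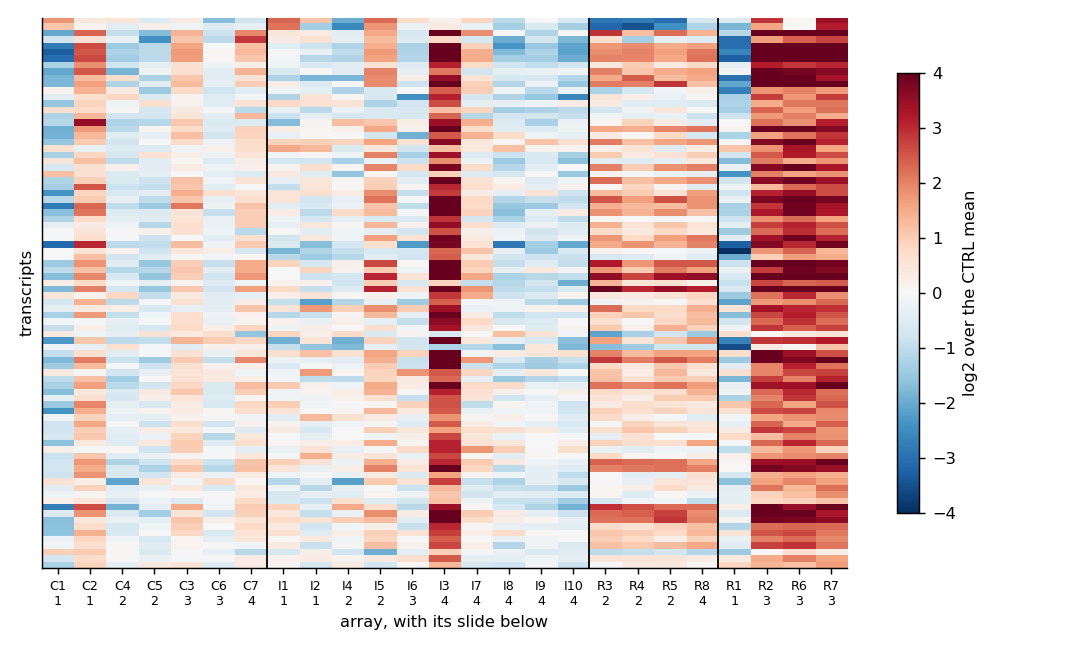
The 86 transcripts called lower in the upper group without R1, as log2 over the CTRL mean, in all 25 arrays. Columns from the left: CTRL, MEA, upper group, lower group; the slide stands below each array.

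Markers of ciliated epithelium followed single horses. The mean of 30 ciliated cell transcripts was 5.19 in R3, 8.00 in R4, 8.65 in R5 and 6.88 in R8, against 3.64 in R1, 7.72 in R2, 7.11 in R6 and 8.55 in R7, and R1 and R3 were the 2 lowest, 1 in each group, with R1 lowest of the 8 for 29 of the 30. All SEA horses but R5 and R7 were below the lowest CTRL horse (8.52). The median difference was 0.47 in the 8 horses and turned to -0.59 without R1, and 0 of the 30 were called in either fit. AK7, an adenylate kinase of cilia, read 6.01 in R3, 8.61 in R4, 9.80 in R5 and 8.05 in R8, against 3.57 in R1, 8.28 in R2, 7.63 in R6 and 9.59 in R7. Of 24 other airway epithelial transcripts 23 were lower without R1 (median -0.70) and 9 in the 8 horses (median 0.17), and 1 (4.17%), the tight junction protein CLDN10, was called without R1. Over all transcripts with a symbol 1241 of 1684 were lower without R1 (median -0.43, 3.38% called) and 966 in the 8 horses (median -0.09). The 21 transcripts of intraflagellar transport had medians of 0.15 and -0.35, and the 16 of complement -0.15 and -1.06, with 0 called in both lists. The part of epithelial cells in the differences was not tested.

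Lymphocyte and dendritic cell markers gave no called transcript in either fit, but 3.38% called without R1, the share of all with a symbol, would be less than 1 in lists of 12 to 17 transcripts. The medians were 0.10 and, without R1, -0.21 over 17 T and NK cell transcripts, -0.09 and -0.79 over 12 B and plasma cell transcripts, and 0.15 and 0.11 over 13 dendritic cell transcripts, beside -0.09 and -0.43 over all with a symbol. FCRL1, a receptor-like protein of B cells, came closest. It read 5.70 in R3, 4.47 in R4, 6.24 in R5 and 5.48 in R8, against 5.68 in R1, 7.11 in R2, 7.71 in R6 and 7.22 in R7. Its difference was -1.46 (adjusted p = 0.9996) and -1.87 without R1 (adjusted p = 0.101), just over the threshold. KLRG1, an inhibitory receptor of T and NK cells, differed by -0.64 (-0.70 without R1) and kept the 4 and 4 horses apart. The T-box factor EOMES differed by 0.93 (0.67 without R1), and its groups overlapped. CD80, a costimulatory ligand on dendritic cells, differed by 0.72 (0.88 without R1), with R5 level with R6 and R7. Only PRG3, an eosinophil granule protein, stood for eosinophils and mast cells, and it read 7.56 in R3 and 7.57 in R7 and at most 6.08 in the other 6.

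**Figure D5:**
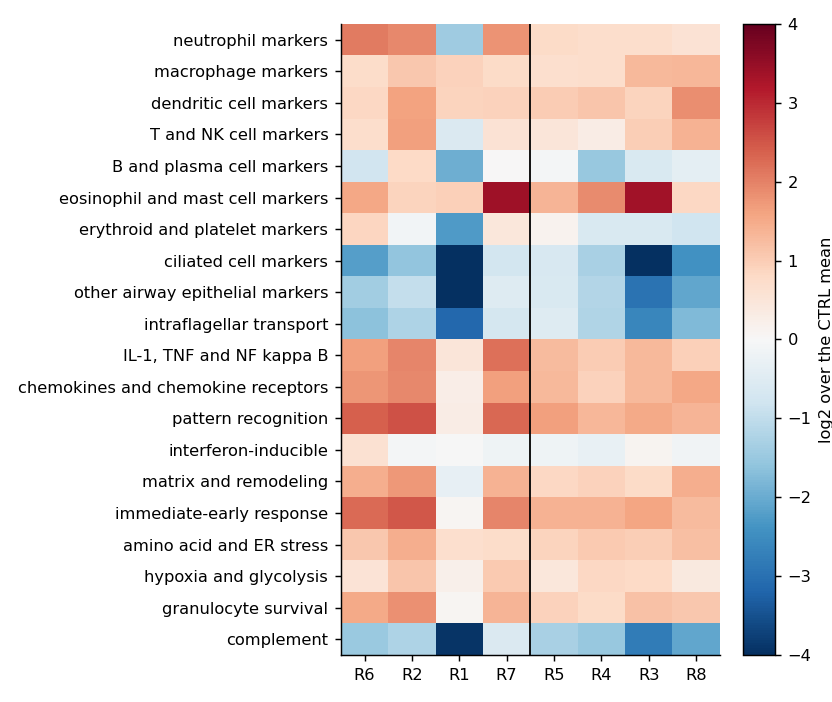
Mean level of 20 gene lists in the 8 SEA horses, as log2 over the CTRL mean. Horses are in the order of their neutrophil share, with the line between the lower group (left) and the upper group (right).

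The cytokines and chemokines named here for their place in severe asthma were not called in either fit. The neutrophil chemokine interleukin 8 (IL8_HORSE) read 16.36 in R3, 15.95 in R4, 16.18 in R5 and 15.80 in R8, against 14.46 in R1, 16.78 in R2, 16.85 in R6 and 16.92 in R7. R1 was the lowest, and R2, R6 and R7 were above all others, though by less than for TREM1. IL1B, on the first of its 2 transcripts, had 14.52 in R3, 14.23 in R4, 15.50 in R5 and 13.65 in R8, and 12.67 in R1, 15.37 in R2, 15.27 in R6 and 16.85 in R7, with R5 above R2 and R6. On the second, R5 at 17.03 was just under R2 at 17.06, and the upper horses were below R2, R6 and R7. The differences were -0.57 and -0.19 in the 8 horses, and those without R1 were -1.36 (adjusted p = 0.287) on the first and -0.70 (adjusted p = 0.340) on the second. CCL17, a chemokine for CCR4-bearing T cells, read 8.98 in R3, 9.69 in R4, 9.02 in R5 and 12.10 in R8, against 6.82 in R1, 12.41 in R2, 11.61 in R6 and 9.06 in R7. R8, R2 and R6 were high, R1 was lowest, and the groups overlapped. For tumor necrosis factor (TNFA_HORSE) the difference was 0.11, and 0.31 without R1. IL1A gave -0.53 and -0.94. The activin subunit INHBA had a difference of 0.11 that was -1.14 without R1 (adjusted p = 0.182), as R1 at 8.26 lay far under the other 7 horses, which read 11.78 to 13.92. CCL20, a ligand of CCR6, differed by -1.21 and by -2.07 without R1 (adjusted p = 0.155), with R7 the highest. The chemokine receptor CXCR4 differed by -0.75 and -1.24 (adjusted p = 0.392), with R8 above R2 and R7.

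Among proteins of matrix breakdown, the collagenase MMP1 read 13.36 in R3, 12.94 in R4, 12.58 in R5 and 12.55 in R8, against 12.12 in R1, 14.28 in R2, 13.98 in R6 and 13.85 in R7. R1 was again the lowest and R2, R6 and R7 the top 3, with a difference of -0.70, and -1.18 without R1 (adjusted p = 0.131). The gelatinase MMP9, stored in neutrophil granules, differed by -0.46 and -1.29 (adjusted p = 0.270), with R8 above R7. The inhibitor TIMP1 differed by 0.23, and by -0.36 without R1. The macrophage growth factor CSF1 differed by 0.58 and 0.39, and its groups overlapped. PLAUR, the receptor for urokinase, was the 1 called without R1 of 19 matrix transcripts (5.26%, near the 3.38% of all with a symbol), whose medians were -0.22 and -0.41, beside -0.09 and -0.43 over all with a symbol. Of 21 immediate-early response transcripts 2 (9.52%) were called without R1, GADD45A and CSRNP1, with medians of -0.36 and -0.87. The interferon-inducible list held 22 transcripts with medians of -0.24 and -0.01, and its 1 called member (4.55%) was PLSCR1, a phospholipid scramblase. Over 22 transcripts of granulocyte survival the medians were -0.27 and -0.45, with 0 called.

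The number of transcripts called higher in the upper group without R1 depended on the processing. It was 1 in the main fit, 20 with normexp background correction, 47 with the slide as a random block and 165 with array weights. The 1 of the main fit was the unnamed ENSECAT00000018322. It read 7.87 in R3, 7.48 in R4, 7.48 in R5 and 6.98 in R8, against 8.26 in R1, 6.21 in R2, 5.87 in R6 and 5.37 in R7. R1 was the highest of the 8, against the rest of its group, and the difference of 1.64 without R1 (adjusted p = 0.0738) was 1.03 with it. MPEG1, a pore-forming protein of macrophages, had 7.00 in R3, 7.23 in R4, 6.92 in R5 and 8.21 in R8, and 7.41 in R1, 6.23 in R2, 4.75 in R6 and 5.67 in R7. R1 lay among the upper group, and the difference was 1.33 and, without R1, 1.79 (adjusted p = 0.131), so it was not called. TUBB6, a tubulin, differed by 1.06 and 1.32 (adjusted p = 0.158). The hypoxia and glycolysis list had 1 of 11 transcripts called without R1 (9.09%, beside 3.38% of all with a symbol), SLC16A3, which was lower in the upper group. The list's median without R1 was 0.11, beside -0.43, with 5 of 11 lower, so its called member ran against it. Of its other members, PFKFB4, a regulatory kinase of glycolysis, differed by 0.77 (0.90 without R1). PDK1, which inhibits pyruvate dehydrogenase, differed by -1.06 (-1.29 without R1) and kept the groups apart. In the amino acid and ER stress list the pseudokinase TRIB3 differed by 1.14 (1.11 without R1), with R2 and R4 the 2 highest. TUBB6, PFKFB4, PDK1 and TRIB3 were not called. Of the unnamed transcripts with the smallest p, ENSECAT00000019101 (0.94) and ENSECAT00000024042 (0.98) lay higher and ENSECAT00000022028 (-1.44) and ENSECAT00000009864 (-1.83) lower in the whole upper group, and ENSECAT00000009864 was called without R1 (-1.73, adjusted p = 0.0792).

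The largest called differences belonged to 2 unnamed transcripts near the background in the upper group, picked after the values were seen. ENSECAT00000020634 read 2.57 in R3, 2.63 in R4, 2.40 in R5 and 4.799 in R8, against 4.89 in R1, 8.35 in R2, 5.52 in R6 and 8.87 in R7, and was well above background in 1 of 4 upper and 4 of 4 lower horses. All lower horses, R1 included, were above all upper horses, but R1 and R8 were level. The fitted difference was -3.81 in the 8 horses (adjusted p = 0.9996) and -4.48 without R1 (adjusted p = 0.0738), and its size is uncertain, since 3 of the upper horses were not well above background. ENSECAT00000018573 read 3.2005 in R3, 2.87 in R4, 3.89 in R5 and 5.12 in R8, against 4.52 in R1, 7.94 in R2, 6.35 in R6 and 9.50 in R7, with R8 above R1 and the other 3 lower horses above both.

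Along the order of the neutrophil share itself, with the 8 horses ranked from R6 to R8, 0 transcripts were called by limma, with 219 at an unadjusted p below 0.05 (85 with a positive and 134 with a negative slope) and a smallest adjusted p of 0.876. Without R1 the limma fit also called 0, with 917 at an unadjusted p below 0.05 and a smallest adjusted p of 0.144. Without R6 there were 104 at an unadjusted p below 0.05. With percentages in place of ranks, 2 were called, both higher with a larger share. TSHZ3, a zinc finger transcription factor, read 5.21 in R3, 5.11 in R4, 3.83 in R5 and 5.38 in R8, against 4.70 in R1, 3.43 in R2, 0.45 in R6 and 3.63 in R7. Only 3 upper and 1 lower horses were well above background, so the order of the horses is uncertain here. ENSECAT00000020167 read 5.81 in R3, 4.90 in R4, 4.14 in R5 and 5.93 in R8, against 4.85 in R1, 3.29 in R2, 0.92 in R6 and 4.18 in R7, and was well above background in 4 upper and 2 lower horses, so that its order is uncertain as well. The 2 had the same adjusted p of 0.0766 in that fit.

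As a measure of signal, spots well above background made up 67.1% of the array in R3, 71.1% in R4, 86.0% in R5 and 71.5% in R8, against 66.6% in R1, 75.8% in R2, 90.8% in R6 and 74.0% in R7. R6 and R5 were the highest, 1 in each group, and R1 and R3 the lowest. The means were 73.9% and 76.8% (two-sided exact permutation p = 0.629 over the 70 splits of the 8 horses, where the smallest possible p is 0.0286). The comparison rests on 4 horses a side, with slide tied to group and 1 array apart from its group, and the horses of the lower group that made the difference were all on 1 slide.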

How the data were processed

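RNA from the BAL fluid of 25 horses was hybridized by the authors to custom one-color arrays with 2 spots for each of 7238 transcripts, read with Feature Extraction 9.5 and normalized by them in R 2.11.1. The deposited files give each spot as a fluorescence intensity (gProcessedSignal). Here log2 intensities were normalized between all 25 arrays by cyclic loess (span 0.7, 3 iterations), the 2 spots were averaged, and a transcript was dropped when 19 or more of the 25 arrays read under 4.5. Between 58.2% and 90.8% of spots were well above background. The groups were compared with limma 3.58.1 in R 4.3.3 (with data.table, version 1.17.8), with p-values adjusted over all 4930 transcripts by the method of Benjamini and Hochberg, and with an exact permutation test for 1 value per array. The scripts were tested on simulated data with known changes. The neutrophil shares and sexes were read from the study's table. The members and lists were chosen with earlier results of these data known. Alternatives were other normalizations on the same transcripts, other filters, covariates, the slide, and each horse left out. CTRL and MEA arrays entered the normalization and filter, and otherwise serve as a reference. Transcripts had no positions, since the reference held no identifiers of this kind. Figures were drawn with Python 3.11 and matplotlib 3.10.9.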

Additional observations from a re-analysis of the deposited data

Results flagged for a closer look

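Values were set apart when 1 horse lay far from the other 3 of its group (a Dixon ratio above its critical value for 4 horses, which some of many values pass by chance). Most belonged to R1, whose place on the first component was -82.36 and whose median over the 86 transcripts called lower without it was -0.63 log2 relative to CTRL, with a mean log2 intensity of 7.55 over the same 86. R1 also stood apart, always as the lowest of its group, in the mean of the neutrophil markers (7.23), of pattern recognition (8.92) and of matrix and remodeling (8.14). By transcript, R1 was set apart at 5.96 for CSF3R, 9.96 for FCAR, 10.31 for G0S2, 11.30 for PTX3, 11.55 for TLR4, 11.83 for CCRL2, 14.46 for IL8_HORSE, 8.07 for IRF2 and 7.21 for SLC16A3. The transcripts with shared probes gave 10.00 and 10.12 for TREM1 and 5.24 and 4.94 for KIAA0226L in R1. What sets R1 apart was not tested.

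In the remaining lower group, R2 was high in the mean of the dendritic cell markers (8.26). In the upper group R8 was low for MARCO (9.75) and RASSF5 (5.999), and R4 was low on the second TREM1 transcript (13.43) and high for MUC5AC (4.07), a mucin near the background in that group. R8 was also the highest of the upper group on the unnamed ENSECAT00000020634 (4.799).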

How the results depend on the processing

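The count of 0 calls in the 8 horses kept its value under 75th percentile scaling, quantile normalization, normexp background correction, the authors' normalized values, both other filters, 25 arrays in 1 fit, sex or signal over background (share of spots) as a covariate, no minimum fold, and the slide as a term or a random block, the last 2 added after the data were seen. Array weights gave 3, and leaving out each horse in turn gave 0 to 87, with 87 only without R1. The slide as a block where slides hold both groups was not run, since no slide did. No paired analysis was possible because the 2 groups hold different horses and share no replicate number.

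Without R1, the 87 calls became 57 with 75th percentile scaling, 24 with quantile normalization, 153 with normexp, 56 with the authors' normalized values and 27 with no filter, where more transcripts share the adjustment. Alternatives chosen after seeing the data gave 0 in 1 fit with the CTRL and MEA arrays, 0 in that fit with the slide as a term (median difference of the 86 -1.80 and -1.85, beside -1.80 in the main fit), 40 with sex as a covariate, 329 with the slide as a random block, where the estimated correlation within slides was negative (-0.114), and 677 with array weights. Calls higher and lower in the upper group were 20 and 133 with normexp, 47 and 282 with the random block, and 165 and 512 with array weights. The main fit gave 1 and 86. Leaving out each further horse gave 0 to 37. All 86 lower transcripts kept their sign in each of these fits, but the sign was fixed by their choice. The causes of these changes were not tested.

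Along the order of neutrophil share, percentages in place of ranks gave 2 calls, and every other setting 0. The difference in the share of spots well above background, -2.86 percentage points, ranged from -6.89 to 1.80 as each horse was left out, and the median log2 signal before normalization differed by 0.0642. The median over the neutrophil markers, -0.46, was -0.27 with quantile normalization and ranged from -1.29 to -0.049 as each horse was left out. The median over the macrophage markers, 0.14, ranged from -0.023 to 0.43, so that its sign turned without R6. Of 93 named transcripts in the 8 horses, none called, 28 changed sign in at least 1 setting. The causes were not tested.

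With 4 horses a side, small differences could not be called, slide cannot be told apart from group, and age and breed by horse were not given. Arrays with fewer spots well above background, R1 and R3 among them, limit what can be read for weak transcripts. Symbols came only from transcripts the study had listed, so named transcripts are not a random sample of the array.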
